A study of Homo sapiens with 10 samples.

Results

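The genes described here encode Mediator, RNA polymerase II and the basal factors that load the polymerase at promoters. They were chosen by name from the protein-coding genes of GENCODE release 44 on GRCh37 (hg19), taking every symbol of the MED, POLR2, GTF2A, GTF2E, GTF2F, GTF2H and TAF series that ends in the number or letter of a subunit. This gave 68 of the 20098 protein-coding genes of the autosomes and chromosome X. Of these, 30 belong to Mediator, 13 to RNA polymerase II, 11 to the general transcription factors (GTFs) TFIIA, TFIIE, TFIIF and TFIIH, and 14 to TFIID and related proteins. GTF2B and TBP are named outside this pattern and were counted with neighbouring pathway genes.

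RNA polymerase II transcribes protein-coding genes. At a promoter, TFIID binds the core DNA, TFIIA and TFIIB stabilise it there, TFIIF escorts the polymerase, and TFIIE and TFIIH open the DNA. Mediator is a modular complex of head, middle and tail that connects transcription factors bound at enhancers with this machinery, and its dissociable kinase module contains CDK8 and cyclin C.

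The study asked where ZMYND8, a chromatin protein with a PHD finger, a bromodomain and a PWWP domain, lies in the genome of HEK293 cells, an established human embryonic kidney line. It used chromatin immunoprecipitation and sequencing (ChIP-seq) of crosslinked chromatin cut with micrococcal nuclease. There are 10 samples, with 2 replicates for each of 4 targets (H3K14ac, H3K27ac, ZMYND8 and its FLAG-tagged form) and 1 input for the tagged and 1 for the other experiments. The processed data used here are 1 list of peaks for ZMYND8 and 1 for FLAG-ZMYND8.

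The ZMYND8 list came from an antibody to the protein itself, in untreated cells as far as the labels say. Those labels describe Flp-In T-REx HEK293 cells that stably carry 3xFLAG-ZMYND8 or its bromodomain mutant N228F and do not say which of the forms was used. The FLAG-ZMYND8 list came from an anti-FLAG antibody in Flp-In T-REx HEK293 cells whose inducible 3xFLAG-ZMYND8 was switched on with 10 nM doxycycline, so it reports a protein expressed from a transgene beside the endogenous one. The lists hold 15086 and 63690 peaks. They give neither reads nor replicates, so the depth is unknown, no spread between replicates can be stated and no test was made. A missing peak says only that none passed the threshold of the authors' caller. The antibody, the induction and the length of the list differ together between the targets and cannot be told apart.

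The reference sequence under 3 of the ZMYND8 peaks is shown first, because each lies at the start of a gene described here and overlaps a FLAG-ZMYND8 peak. They are, among peaks of up to 300 bp with such an overlap, those nearest to a start in 3 groups. These are Mediator, RNA polymerase II, and TFIID and related genes. The stretches are chr12:27175663-27175803 at MED21, chr15:57998896-57999099 at POLR2M and chr17:34136416-34136515 at TAF15, all on the plus strand of hg19 and written 5′ to 3′. They were shortened so that no more than 30 untranslated exon bases follow each other. Capitals mark the GC box GGGCGG, bound by Sp and KLF factors, and the CCAAT box, each read on either strand.
MED21: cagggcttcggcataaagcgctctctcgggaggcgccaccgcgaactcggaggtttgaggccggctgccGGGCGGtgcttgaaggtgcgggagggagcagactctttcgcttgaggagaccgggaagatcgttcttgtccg
POLR2M: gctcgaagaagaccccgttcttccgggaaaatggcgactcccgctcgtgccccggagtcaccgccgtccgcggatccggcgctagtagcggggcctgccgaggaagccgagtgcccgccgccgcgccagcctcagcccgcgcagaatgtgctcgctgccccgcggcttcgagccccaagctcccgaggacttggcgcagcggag
TAF15: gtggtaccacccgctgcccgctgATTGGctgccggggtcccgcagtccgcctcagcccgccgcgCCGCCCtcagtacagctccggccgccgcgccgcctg
The MED21 stretch has a GC content of 64.5% with 15 CpG sites in 141 bases. The POLR2M stretch reaches 72.1% with 29 CpG sites in 204 bases and holds neither box.

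The starts of MED10, a middle subunit, and TAF1, the largest TFIID subunit, are shown for contrast, because neither list has a peak within 3 kb of them. The stretch for MED10 is chr5:6378655-6378816 on the minus strand and that for TAF1 is chrX:70585822-70586101 on the plus strand, with the same shortening and the same capitals.
MED10: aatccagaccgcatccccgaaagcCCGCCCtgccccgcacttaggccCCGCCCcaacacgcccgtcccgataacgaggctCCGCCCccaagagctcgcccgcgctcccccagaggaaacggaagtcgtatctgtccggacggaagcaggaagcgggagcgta
TAF1: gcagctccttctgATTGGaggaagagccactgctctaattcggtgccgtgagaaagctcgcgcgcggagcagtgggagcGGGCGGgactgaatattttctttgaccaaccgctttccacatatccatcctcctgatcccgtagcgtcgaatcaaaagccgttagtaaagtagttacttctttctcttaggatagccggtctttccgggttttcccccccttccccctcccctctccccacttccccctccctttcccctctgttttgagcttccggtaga
These starts are rich in CpG as well. The MED10 stretch holds 3 GC boxes read on the opposite strand, and the TAF1 stretch holds a GC box and a CCAAT box.

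The ZMYND8 list marked the starts of the TFIID and GTF genes more often than those of Mediator and the polymerase. A gene was counted when the midpoint of a peak lay within 3 kb of its transcriptional start site (TSS), taken as the 5′ end of the gene. This was the case for 31 of the 68 genes, or 45.6%, beside 34.1% of all protein-coding genes. Within 1 kb there were 29 genes, or 42.6%, beside 28.5% of all genes. The groups did not share this evenly. A ZMYND8 peak lay within 3 kb in 10 of 14 TFIID and related genes and 8 of 11 GTF genes. It did so in 9 of 30 Mediator genes, which is 30.0%, and in 4 of 13 polymerase genes, which is 30.8%. The last shares lie below the 34.1% of all genes, while the first reach 71.4% and 72.7%. These are counts of 11 to 30 genes in 1 list, and the difference between the groups was not tested. Among peaks wider than the list's minimum of 151 bp the TFIID genes stood above the other groups, and the GTF share, at 27.3%, was near that of all genes. Such peaks marked 7 of 14 TFIID and related, 3 of 11 GTF, 3 of 13 polymerase and 6 of 30 Mediator genes. The share over all genes was 22.95%.

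FLAG-ZMYND8 peaks lay at the starts of most genes in each group. They were found within 3 kb in 50 genes, or 73.5%, beside 58.1% of all genes, and within 1 kb in 48 genes, or 70.6%, beside 49.3%. By group, 21 of 30 Mediator, 9 of 13 polymerase, 9 of 11 GTF and 11 of 14 TFIID and related genes had one within 3 kb. The gap between the groups that the ZMYND8 list shows was therefore narrower in the FLAG-ZMYND8 list, where the shares run from 69.2% to 81.8%. Peaks of both lists lay within 3 kb of 29 genes, or 42.6%, beside 29.4% of all genes. Another 21 genes had only FLAG-ZMYND8 peaks, 16 had neither, and GTF2E1 and TAF7 had only a ZMYND8 peak.

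**Figure D1:**
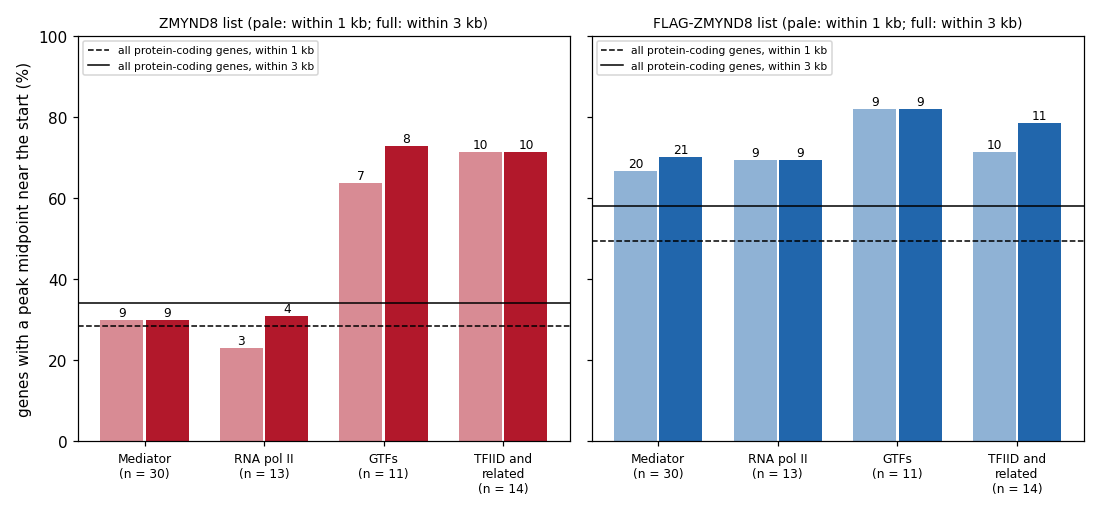
Share of genes (%) with a peak midpoint within 1 kb (pale bars) or 3 kb (full bars) of the gene start, for the ZMYND8 list (left) and the FLAG-ZMYND8 list (right), in each group; numbers above bars are gene counts and the lines give all 20098 protein-coding genes. In the ZMYND8 panel the GTF and TFIID bars at 3 kb reach 72.7% and 71.4% while Mediator and the polymerase stay near 30%, and in the FLAG-ZMYND8 panel all groups exceed the lines.

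The difference from all genes was not seen among CpG-rich promoters. Of the 68 starts, 55 or 80.9% had at least 50% GC and an observed over expected CpG ratio of at least 0.6 in the 300 bases from 250 before to 50 after the start, beside 54.9% of all genes. Among starts of this kind, 23 of 55 or 41.8% had a ZMYND8 peak within 3 kb, beside 47.5% of such genes in general. For FLAG-ZMYND8 the shares were 74.5% and 77.0%. These 55 genes thus stood slightly below CpG-rich starts in general in both lists. The remaining 13 starts were marked more often than other starts of their kind, with ZMYND8 peaks at 8 or 61.5% beside 17.8% and FLAG-ZMYND8 peaks at 9 or 69.2% beside 35.0%. This class was read at the outermost annotated start, and it does not show that the promoters in use are poor in CpG. The canonical transcript begins 16154 bp further in at MED7, 6807 bp at MED24 and 5224 bp at TAF12. MED19 and TAF2 missed only the GC limit, with 46.3% and 47.3%.

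Many of these genes start close to a neighbour that is read in the other direction. The start of another protein-coding gene lay within 1 kb on the opposite strand for 23 of them, or 33.8%, beside 13.3% of all genes. Of the 23, 12 or 52.2% had a ZMYND8 peak within 3 kb and 21 or 91.3% a FLAG-ZMYND8 peak, beside 51.1% and 79.9% of all such genes. In 17 of these pairs the neighbour starts upstream, head to head with the gene described here. All 17 had a FLAG-ZMYND8 peak within 1 kb, beside 71.3% of all head-to-head genes. A ZMYND8 peak lay within 1 kb of 7 of the 17, or 41.2%, beside 45.6%. A peak at such a promoter cannot be assigned to one gene of the pair. The nearest protein-coding start was that of the gene described here for 24 of the 32 ZMYND8 peaks within 3 kb and for 79 of the 100 FLAG-ZMYND8 peaks there.

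**Figure D2:**
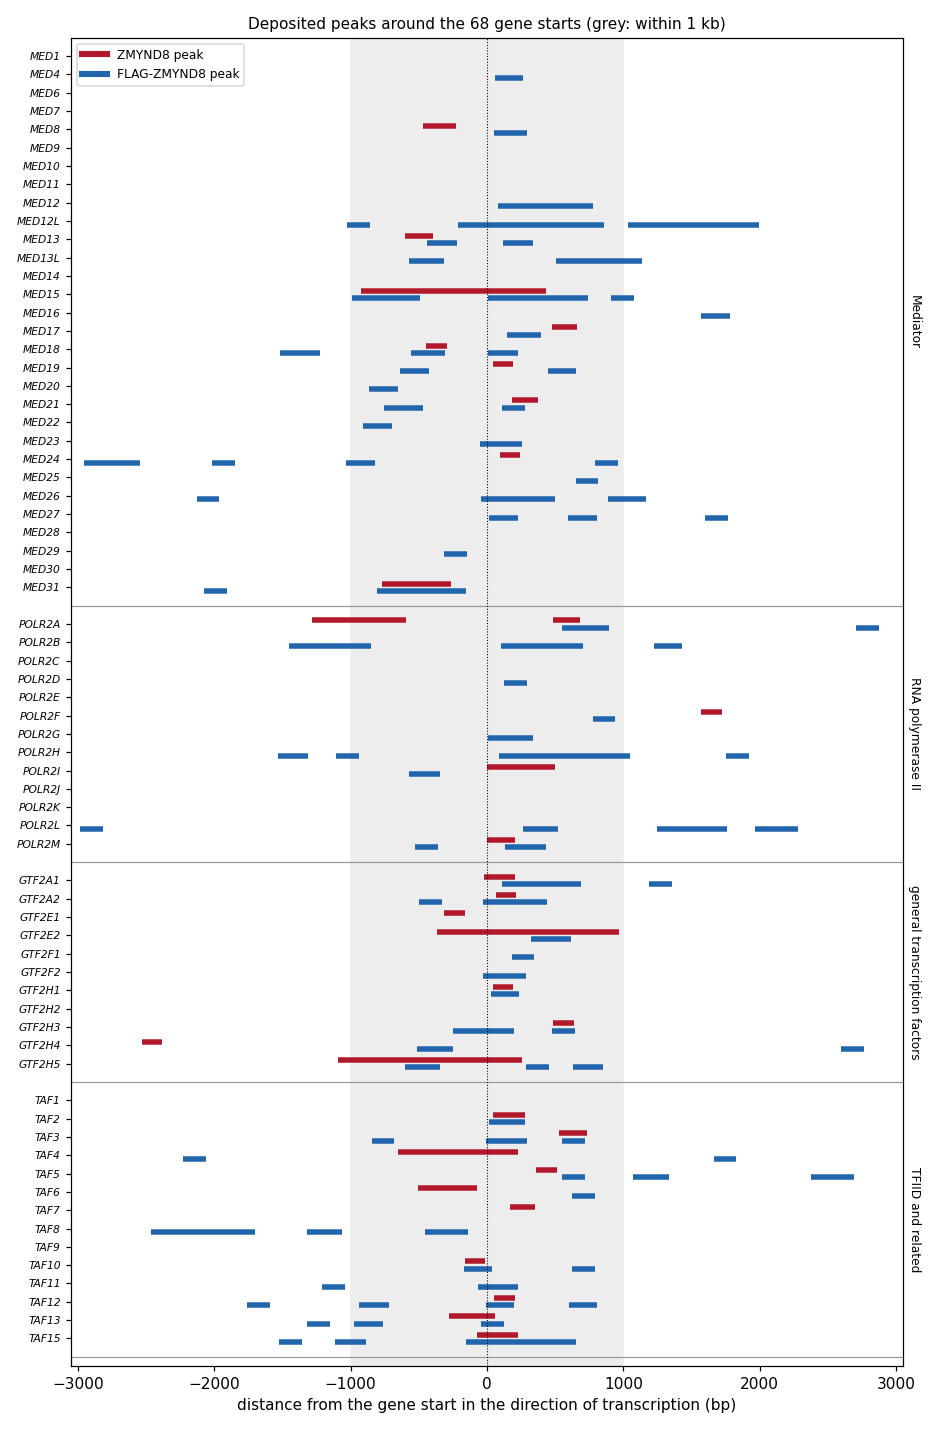
Position of each ZMYND8 (red) and FLAG-ZMYND8 (blue) peak around the start of each of the 68 genes, in bp along the direction of transcription, ordered by group; bar length is peak width and grey marks 1 kb on each side. The bars crowd within 1 kb of the start, and rows without a bar, such as MED1 or TAF1, are the 16 genes with no peak of either list.

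The peaks sat close to the start and, as over all genes, mostly just inside the gene. Of the 32 ZMYND8 peaks within 3 kb, 30 lay within 1 kb, and 18 of those were downstream of the start. Counted as genes, 29 had a ZMYND8 peak within 1 kb and 31 within 3 kb, beside 5734 and 6856 of all 20098 genes. For FLAG-ZMYND8 these counts were 48 and 50, beside 9901 and 11670. Downstream positions made up 60.0% for ZMYND8, beside 65.9% over all genes, and 66.7% for FLAG-ZMYND8, beside 60.0%. The 500 bp just after the start held a ZMYND8 peak in 20.6% of the 68 genes and 13.9% of all genes, and a FLAG-ZMYND8 peak in 44.1% and 25.4%. Of the 31 genes with ZMYND8, all but POLR2A had a single peak. FLAG-ZMYND8 peaks came singly at 20 genes and in numbers of 2 to 4 at 30. These numbers per start are given without those over all genes, and the FLAG-ZMYND8 list is the longer. Widths were close to those at other starts, with a median of 200.5 bp for ZMYND8 beside 226 bp over all genes and of 215 bp for FLAG-ZMYND8 beside 227 bp. A FLAG-ZMYND8 peak overlapped 19 of the 32 ZMYND8 peaks by at least 1 bp, or 59.4%, beside 56.4% for all starts.

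**Figure D3:**
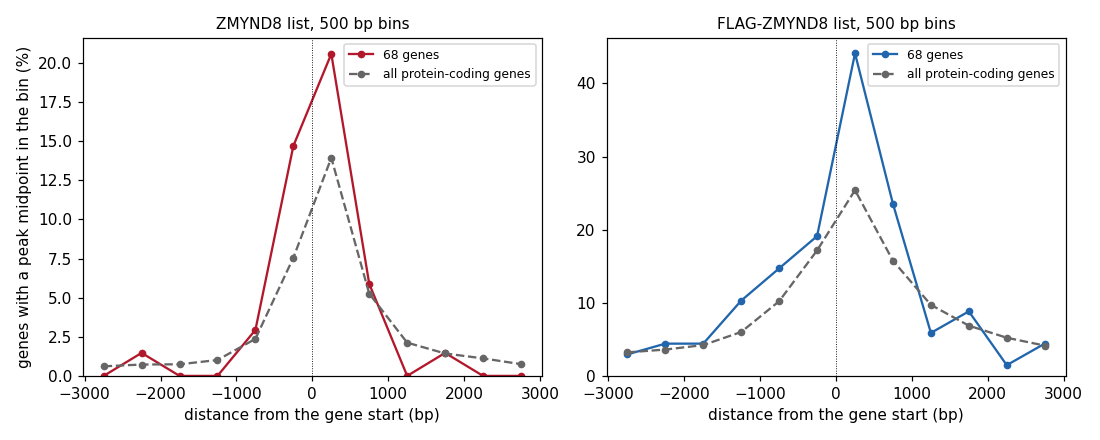
Share of genes (%) with a peak midpoint in each 500 bp bin from 3 kb upstream to 3 kb downstream of the gene start, for the ZMYND8 list (left) and the FLAG-ZMYND8 list (right), in the 68 genes (solid) and all 20098 protein-coding genes (dashed). Both lists peak in the first bin downstream of the start, at 20.6% and 44.1% of the 68 genes; one gene is 1.47% of a solid line.

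In Mediator, the widest ZMYND8 peak lay at MED15, a tail subunit that contacts activators. The gene occupies bases 20850200 to 20941919 of chromosome 22, plus strand. Its ZMYND8 peak of 1354 bp, with the midpoint 245 bp upstream, overlapped 2 FLAG-ZMYND8 peaks, the wider of which measured 730 bp. The start of KLHL22 lies 69 bp upstream on the other strand, and is nearer to the midpoint of the ZMYND8 peak than the start of MED15. The canonical MED15 transcript begins 11697 bp further in, where another ZMYND8 peak, of 280 bp and counted in the body, is centred 273 bp downstream. The middle subunit MED31 followed with a ZMYND8 peak of 509 bp, 519 bp upstream, under a FLAG-ZMYND8 peak of 653 bp. The head subunit MED8 had a ZMYND8 peak of 239 bp, 349 bp upstream.

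The ZMYND8 peaks of Mediator were spread over its modules. Of the 7 head genes 3 had a ZMYND8 peak within 3 kb, namely MED8, MED17 and MED18. Of the 9 middle genes 3 had one, namely MED19, MED21 and MED31. In the backbone and tail, as grouped here, 2 of 10 did, MED15 and MED24. MED17, a head scaffold, shares its promoter with TAF1D, which starts 164 bp downstream on the other strand and is nearer to the ZMYND8 peak. The MED24 peak lies at the outermost annotated start: the canonical transcript begins 6807 bp further in and has no ZMYND8 peak within 3 kb.

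The 4 genes of the kinase module, MED12, MED12L, MED13 and MED13L, all had a FLAG-ZMYND8 peak within 1 kb, and only MED13 had a ZMYND8 peak within 3 kb. MED12 and MED12L are paralogues, as are MED13 and MED13L, and each pair fills 1 place in the module. MED12, on chromosome X from 70338393 to 70363953, had a single FLAG-ZMYND8 peak of 700 bp in an intron 429 bp downstream, and no peak further in. MED12L had 3 FLAG-ZMYND8 peaks at its start, of 167, 1071 and 965 bp, and 3 more in its body. The 1071 bp peak was the widest FLAG-ZMYND8 peak at any of the 68 starts.

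MED13 and MED13L carried peaks along their length. MED13, on the minus strand of chromosome 17, had a ZMYND8 peak of 200 bp, 500 bp upstream, that overlapped a FLAG-ZMYND8 peak of 214 bp. Its body, which is the gene from 3 kb past the start to its end, held 8 FLAG-ZMYND8 peaks and 1 ZMYND8 peak. The body of MED13L, a gene of 319789 bp, held 15 FLAG-ZMYND8 peaks, the most of the 68 genes. All 15 lay in introns, a count given without a share over all genes. The FLAG-ZMYND8 density was 4.74 per 100 kb of body at MED13L and 6.68 at MED13. Over all genes with a body over 100 kb it was 1.75. One of the 15 peaks of MED13L, of 307 bp, contained its only ZMYND8 peak, of 151 bp, 112082 bp into the gene.

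Among the polymerase genes, ZMYND8 peaks lay at POLR2A, POLR2F, POLR2I and POLR2M. POLR2A encodes the largest, catalytic subunit, whose C-terminal repeats are phosphorylated during transcription, and occupies bases 7387685 to 7417933 of chromosome 17, plus strand. It had 2 ZMYND8 peaks. The wider, of 690 bp, was centred 941 bp upstream with no FLAG-ZMYND8 peak over it, nearer to the start of ZBTB4 than to that of POLR2A. The other, of 201 bp, lay in an intron 582 bp downstream and overlapped a FLAG-ZMYND8 peak of 348 bp. POLR2A also held 5 FLAG-ZMYND8 peaks in its body, 2 of them over coding exons, at a density of 18.4 per 100 kb. The density over all genes with a body from 10 to 30 kb was 5.37 per 100 kb.

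POLR2I, a small subunit with a part in proofreading, had a ZMYND8 peak of 497 bp, 251 bp downstream, which no FLAG-ZMYND8 peak overlapped. POLR2M, a polymerase-associated factor known as Gdown1, had one of 207 bp, 103 bp downstream, which overlapped a FLAG-ZMYND8 peak of 306 bp. Of the 5 subunits shared with RNA polymerases I and III, which are POLR2E, POLR2F, POLR2H, POLR2K and POLR2L, only POLR2F had a ZMYND8 peak within 3 kb, 1645 bp downstream. That peak was nearer to the start of C22orf23, at 583 bp, and lay 553 bp downstream of the canonical POLR2F start. POLR2H had 4 FLAG-ZMYND8 peaks within 3 kb, the widest of 960 bp, and no ZMYND8 peak nearer than 38462 bp. POLR2B, the second-largest subunit, had 3 FLAG-ZMYND8 peaks within 3 kb and likewise no ZMYND8 peak.

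In the GTFs, both genes of TFIIA and both of TFIIE had a ZMYND8 peak, neither gene of TFIIF did, and 4 of the 5 TFIIH core genes did. GTF2H5, the smallest TFIIH subunit, occupies bases 158589382 to 158620376 of chromosome 6, plus strand. It had a ZMYND8 peak of 1354 bp with the midpoint 419 bp upstream, which spans the start of SERAC1 on the other strand. GTF2E2, the beta subunit of TFIIE, had a ZMYND8 peak of 1334 bp with the midpoint 303 bp downstream. In the whole list these peaks stand at ranks 391 and 402 by width.

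Both overlapped a FLAG-ZMYND8 peak under 300 bp wide, of 255 bp at GTF2H5 and of 288 bp at GTF2E2. The ZMYND8 peaks of the TFIIA genes were narrower, with 229 bp at GTF2A1 and 151 bp at GTF2A2. Of the 8 GTF genes with a ZMYND8 peak, 5 had only a peak of the minimum width of the list, 151 bp, among them GTF2H1, GTF2H3 and GTF2H4. The peak at GTF2H4 lay 2459 bp upstream. GTF2E1, the alpha subunit of TFIIE, had a 151 bp ZMYND8 peak 237 bp upstream and no FLAG-ZMYND8 peak nearer than 146147 bp. GTF2F1 and GTF2F2, the TFIIF subunits, each had 1 FLAG-ZMYND8 peak within 3 kb, 263 and 126 bp downstream.

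In TFIID, ZMYND8 peaks lay within 1 kb of the starts of TAF2, TAF3, TAF4, TAF5, TAF6, TAF7, TAF10, TAF12 and TAF13, so of 9 of the 13 subunits, and of the related gene TAF15. TAF4, a scaffold of the complex with a histone fold, had the widest of them. Its ZMYND8 peak of 885 bp, 212 bp upstream, holds 149 CpG sites at a GC content of 81.1% and overlapped no FLAG-ZMYND8 peak. The nearest FLAG-ZMYND8 peak at TAF4 lay 1746 bp downstream. TAF6, which pairs with TAF9 through the histone fold, had a ZMYND8 peak of 430 bp, 288 bp upstream, again without overlap.

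TAF13 and TAF15 had peaks of both lists at the start. TAF13, the partner of TAF11, had a ZMYND8 peak of 339 bp over a FLAG-ZMYND8 peak of 167 bp. TAF15, an RNA-binding protein of the FET family, had a ZMYND8 peak of 298 bp within a FLAG-ZMYND8 peak of 809 bp, and part of the sequence of the former is shown above. TAF7, which binds TAF1, had a 188 bp ZMYND8 peak 259 bp downstream and no FLAG-ZMYND8 peak nearer than 100603 bp. TAF8 and TAF11 had FLAG-ZMYND8 peaks only. The 3 FLAG-ZMYND8 peaks of TAF8 all lay upstream, the widest of 767 bp, and were nearer to the start of CCND3.

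The histone-fold pairs of TFIID did not match throughout. TAF4 and TAF12 both had a ZMYND8 peak at the start, as did TAF3 and TAF10. Of TAF6 and TAF9 only TAF6 had one, of TAF8 and TAF10 only TAF10, and of TAF11 and TAF13 only TAF13.

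A peak of neither list lay within 3 kb of 16 genes, 23.5% of the 68 beside 37.2% of all genes. They are MED1, MED6, MED7, MED9, MED10, MED11, MED14, MED28 and MED30 of Mediator, POLR2C, POLR2E, POLR2J and POLR2K of the polymerase, GTF2H2 of TFIIH, and TAF1 and TAF9 of TFIID. They include MED1, the subunit that binds nuclear receptors, and MED14, the backbone that joins the modules. Of the 16 starts, 13 were CpG-rich by the limits above. The nearest FLAG-ZMYND8 peak lay between 4471 bp, at POLR2C, and 384942 bp, at MED30, with a median of 17246 bp. It lay within 10 kb for 5 of the 16, and 6 of the 16 had a peak of either list in the body.

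The absence of peaks is not equally informative at these genes. In 65 of the 68 windows of 3 kb on each side, at least 90% of 100-base tiles could be placed uniquely in the genome, with a median of 98.7% over all windows. At GTF2H2 0 of 119 tiles could, and the annotation has the related GTF2H2C and GTF2H2B elsewhere on chromosome 5. At POLR2J 41 of 119 could, or 34.5%, and POLR2J2 and POLR2J3 lie on the same chromosome 7. How reads with several placements were handled is not given in the sources used here. MED7 is another exception: its canonical transcript begins 16154 bp inside the annotated gene, and there 2 FLAG-ZMYND8 peaks lay within 3 kb, the nearest 192 bp downstream.

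TAF1 carries bromodomains of its own. Its gene, at bases 70586072 to 70752224 of chromosome X (plus strand), had no peak of either list within 3 kb. The body held a 151 bp ZMYND8 peak 93934 bp into the gene and a 213 bp FLAG-ZMYND8 peak, both in introns and apart from each other. None of the 3 genes on chromosome X, MED12, MED14 and TAF1, had a ZMYND8 peak within 3 kb. These are too few to set against the 34.1% of all genes.

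Inside the genes the ZMYND8 list was sparse. A ZMYND8 peak lay in the body of 10 of the 66 genes longer than 3 kb, or 15.2%, beside 20.7% of all genes. A FLAG-ZMYND8 peak lay in the body of 29 of the 66, or 43.9%, beside 48.8%. There were 11 ZMYND8 peaks, 0.340 per 100 kb beside 0.443 over all genes, and 106 FLAG-ZMYND8 peaks, 3.27 per 100 kb beside 2.49. Introns held 10 of the 11 and 90 of the 106, counts that are given without a share over all genes. The share of genes with a body peak was thus below that of all genes in both lists, while the pooled FLAG-ZMYND8 density was above that of all genes. That density was not higher at every body length. Up to 10 kb it was 6.82 per 100 kb beside 8.30 over all genes, and from 10 to 30 kb 3.01 beside 5.37. From 30 to 100 kb it was 3.66 beside 3.44, and over 100 kb, in 8 genes, 2.87 beside 1.75.

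Longer bodies held a FLAG-ZMYND8 peak more often. All 8 genes whose body was over 100 kb had one, beside 71.4% of all genes with a body of that length, and 5 of the 19 with a body from 10 to 30 kb had one, beside 43.8%. In Mediator, MED13L, MED15 and MED13 held the most, with 16, 10 and 9 peaks of the lists together. POLR2F held 8 FLAG-ZMYND8 and 2 ZMYND8 peaks over 89309 bp, and 7 of those 8 had the minimum width of 167 bp. This width was not particular to POLR2F. Most FLAG-ZMYND8 body peaks of MED13, GTF2F2 and TAF3 and all of those of GTF2E2 and TAF4 had it, while most at MED13L were wider. GTF2F2 and TAF3, the TFIID subunit whose PHD finger reads H3K4 methylation, held 7 FLAG-ZMYND8 peaks each. POLR2L held 2 FLAG-ZMYND8 peaks and GTF2E2 held 3, while GTF2A1, GTF2H3 and GTF2H4 each held 1 peak of either list, and TAF4 held 4 FLAG-ZMYND8 peaks and TAF12 held 3 with 1 ZMYND8 peak. TAF12 was the only one of the TFIID genes with a ZMYND8 body peak above the minimum width, of 353 bp, close to its canonical start.

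**Figure D4:**
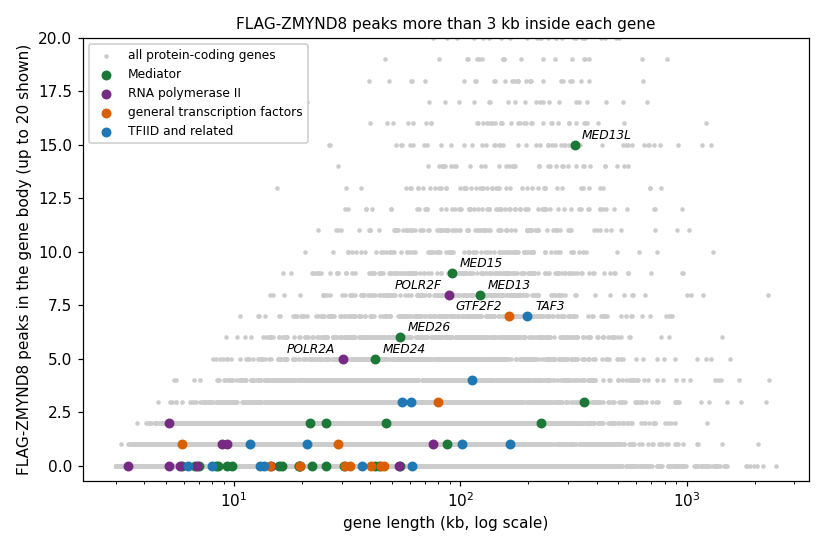
Number of FLAG-ZMYND8 peaks in the gene body against gene length (kb, log scale) for the 66 genes longer than 3 kb, coloured by group, over all protein-coding genes (grey; genes above 20 peaks are not drawn). MED13L stands highest among the coloured points with 15 peaks, and genes with 5 or more are named.

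The 300 bases around the starts were searched on both strands for 7 motifs, none of which contains another. The GC box GGGCGG occurred in 47 of the 68 starts, or 69.1%, beside 52.2% of all starts, and CCAAT in 20, or 29.4%, beside 35.8%. The ETS core CCGGAAGT occurred in 11, or 16.2%, beside 5.08%. The YY1 core AAGATGGCG occurred in 5, or 7.35%, beside 1.87%, and TATAAA in 6, or 8.82%, beside 10.9%. Of the 47 starts with a GC box 20 had a ZMYND8 peak within 3 kb, or 42.6%, beside 43.4% of all starts with the box. Of the 11 with the ETS core 6 did, or 54.5%, beside 48.0%. The NRF1 core occurred in 2, or 2.94%, beside 1.49%, and the ZBTB33 palindrome in none, beside 0.552%. A match is a run of letters and was not shown to be bound.

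A further 64 genes of the same pathways were counted in the same way. A ZMYND8 peak lay within 3 kb of 24 of them, or 37.5%, and a FLAG-ZMYND8 peak of 49, or 76.6%, beside 34.1% and 58.1% of all genes. Integrator, which processes RNA at the polymerase, had ZMYND8 peaks at 3 of 14 genes and FLAG-ZMYND8 peaks at 11. All 12 RNA polymerase III genes had a FLAG-ZMYND8 peak, and 6 of them a ZMYND8 peak. RNA polymerase I had 5 and 8 of 12 genes. TBP, TFIIB and the TFIID paralogues had 3 and 4 of 8, the kinases and helicases of Mediator and TFIIH 3 and 7 of 8, elongation factors 3 and 5 of 8, and the TAF-like subunits of SAGA 1 and 2 of 2. None of these lists reached the ZMYND8 share of the TFIID or GTF genes.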

How the data were processed

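Reads were aligned to hg19 by the authors (BWA, then HOMER for profiles). The settings of the peak caller and the way replicates were combined are not given in the sources used here. Each deposited list has 6 columns, and its score, as deposited by the authors, is 1 throughout, so peaks were ranked by width. Positions were read as half-open BED intervals, a peak was placed by its midpoint, and gene starts came from GENCODE release 44 on GRCh37. 0 columns belonged to other samples. The placement functions were checked on simulated data with known answers. Tiles of 100 bases, 50 bases apart, were mapped with minimap2 2.31 and called unique at a mapping quality of at least 10. CpG content came from the same genome.

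The members, gene lists and alternatives were chosen with earlier results of these data known. Named genes were those with the 3 widest ZMYND8 peaks at the start and the 3 highest numbers of body peaks in each of the 4 groups, all genes with no peak of either list or with a ZMYND8 peak only, the MED12 and MED13 pairs, POLR2A, TAF1 and genes with near-identical copies. Others named in the text were chosen after their values were seen. Of the sequences chosen by rule, those for GTF2A1, POLR2J and GTF2H2 are not printed, the first because 30 bases were left after shortening and the others because their windows are not unique. Samples of H3K14ac, H3K27ac and input were not used here. Analyses used Python 3.11.15, numpy 2.4.6, pysam 0.24.0 and matplotlib 3.10.9.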

Additional observations from a re-analysis of the deposited data

How the results depend on the processing

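No test was made, so the counts of genes were compared across settings. With peaks wider than the minimum of each list, the ZMYND8 counts fell to 19 genes within 1 kb, 19 within 3 kb and 3 in the body, both lists marked 16 genes, and 10 ZMYND8 peaks overlapped a FLAG-ZMYND8 peak. A reciprocal overlap of 50% left 8. With only the widest FLAG-ZMYND8 peaks, as many as the ZMYND8 list holds, that list marked 25 genes within 1 kb, 28 within 3 kb and 9 in the body, which is 36.8%, 41.2% and 13.6% beside 29.8%, 35.5% and 16.2% of all genes. The ZMYND8 background within 3 kb was 47.5% over CpG-rich starts and 51.1% over starts with an opposite start within 1 kb, and the FLAG-ZMYND8 background 77.0% and 79.9%. These backgrounds lie above the shares over all genes, which were 34.1% and 58.1%, but within 1.5 times of them. In a further 27 comparisons the count also stayed within 1.5 times the main value. They include the start of the canonical transcript, chosen after seeing the data, which gave 30 genes with ZMYND8 and 51 with FLAG-ZMYND8 within 3 kb, beside 35.2% and 59.6% of all genes. By group, 119 values stayed within 1.5 times and 17 moved further. The cause was not tested. No paired analysis was possible because each target has 1 list and the result comes from no test, and no replicate could be left out.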
